A study of Mus musculus with 8 samples.

Results

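The basal-like cells of Lats1-CKO PyMT tumor lines were set against all other cells of the experiment taken as a single group, that is, their 2 libraries against the 6 libraries of WT luminal, WT basal-like and Lats1-CKO luminal cells. Every gene of the table was examined, and genes were singled out when both Lats1-CKO basal-like values lay above, or both lay below, the values of all 6 others. Of 10924 genes, 9031 reached a value of 10 in 2 or more libraries and were tested. Of these, 758 lay above all 6 others (8.39%) and 812 lay below all 6 (8.99%), 1570 genes in all. The genes left out as too low held a further 88 above and 127 below. Of the 758, 69 passed the filter only through the Lats1-CKO basal-like libraries, and of the 812, 270 reached 10 only in other cells.

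All cells came from tumors of FBV/N mice (as the labels spell the strain) in which the polyoma middle T antigen (PyMT), a viral oncogene, is driven by the MMTV promoter in mammary epithelium, so every group carried the transgene. WT cells had intact Lats1. Lats1-CKO cells carried a conditional deletion of it, and what drove the recombinase is not given in the sources used here. Cells were sorted on EpCAM, an epithelial adhesion molecule, and CD49f, an integrin chain: luminal cells were high for both, basal-like cells were low for EpCAM and high for CD49f. The study reports that the sorted cells were grown for a short time before RNA was taken. It also reports that sorted WT basal-like cells turned partly luminal over passages, while Lats1-CKO basal-like cells kept their phenotype. Whether the WT basal-like libraries used here had shifted was not tested. The methods of the study state that cultures were washed to detach fibroblasts when the lines were made. Its results describe Lats1-CKO cultures as enriched, to a varying extent, in cells defined as fibroblasts. MARS-seq, which counts the 3′ ends of transcripts, gave 2 libraries a group. The labels do not say whether these came from separate cultures, so the p-values below measure only the spread between these samples. Within a group, that spread may be technical. Where all other cells are taken as a single group, it also holds differences between WT luminal, WT basal-like and Lats1-CKO luminal cells.

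Lats1 is a kinase of the Hippo pathway, best known for restraining the coactivators YAP and TAZ. Mammary epithelium has an inner luminal layer, marked by keratins 8 and 18, and an outer basal layer, marked by keratins 5 and 14. Epithelial cells are held together by E-cadherin, by claudin-based tight junctions and by desmosomes. In epithelial to mesenchymal transition (EMT), factors of the ZEB, SNAIL and TWIST families come on, the junction genes go down, and vimentin and matrix genes come up.

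Values are normalized read counts (reads divided by the size factor of the library), in which 1 read was worth 0.638 to 1.35. The table held 1070358 to 2334446 reads a library, and 1128766 and 1312264 in Lats1-CKO basal-like replicates 1 and 2. Lats1 itself, the targeted gene, read 8.04 and 11.6 in Lats1-CKO basal-like cells, 13.4 and 9.08 in Lats1-CKO luminal cells, and 30.3 to 62.5 in the 4 WT libraries. Lats1-CKO libraries of both populations were thus below every WT library, and between themselves they overlapped. Which exons were deleted is not given in the sources used here, so 3′ tags may lie outside them. Of 7 tested basal and myoepithelial markers, 2 lay below all 6 others (Krt14 and Itgb4; over all genes, 8.99%), none lay above and none passed. Krt5 read 22.8 and 24.6, inside the 18.3 to 31.9 of 5 other libraries, while Lats1-CKO luminal replicate 2 held 4881. Krt14 read 125 and 681 and lay below all 6 others (1098, median 2558, highest 14721). Trp63, the transcription factor of basal epithelium, read 21.4 in replicate 1 and 0 in replicate 2. Cnn1 (calponin), of the contractile myoepithelial cell, was too low to be tested and lay above all 6 others, at 6.7 and 11.6 against 0 to 2.02, and Tagln overlapped at 2.68 and 14.2 against 0 to 3.03. Of the 7 tested markers, 1 had a positive log2 fold change, Oxtr, at 0 in replicate 1 and 88 in replicate 2. The median log2 fold change was -1.39. The tested markers thus leaned mostly downward, and the cells are called Lats1-CKO basal-like here by their sort.

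A gap was taken as the distance, on the log2(value + 1) scale, between the Lats1-CKO basal-like library nearest to the others and the other library nearest to it. Most gaps were small. The median was 0.20 among genes above and 0.28 among genes below. Wide gaps were mostly on the lower side: 150 genes lay below all 6 by at least 2-fold against 46 above, 65 against 12 at 4-fold, and 25 against 2 at 8-fold. Since the genes were picked by their position, the separation itself was not tested, and an exact permutation of 2 libraries among 8 has 28 arrangements and cannot give a two-sided p below 0.0714. For the size of the counts, each other group was set against its own 6 in the same way. Those 6 include both Lats1-CKO basal-like libraries. Replicates 1 and 2 were highest of the 8 at 1614 and 1796 genes and lowest at 1817 and 1554. At such genes no other group can lie outside on that side, so the counts are not like for like. WT luminal cells gave 364 genes above and 358 below, WT basal-like cells 141 and 138, and Lats1-CKO luminal cells 143 and 130. At 2-fold, the counts were 5 above and 17 below for WT luminal, 2 and 2 for WT basal-like, and 4 and 2 for Lats1-CKO luminal.

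**Figure D1:**
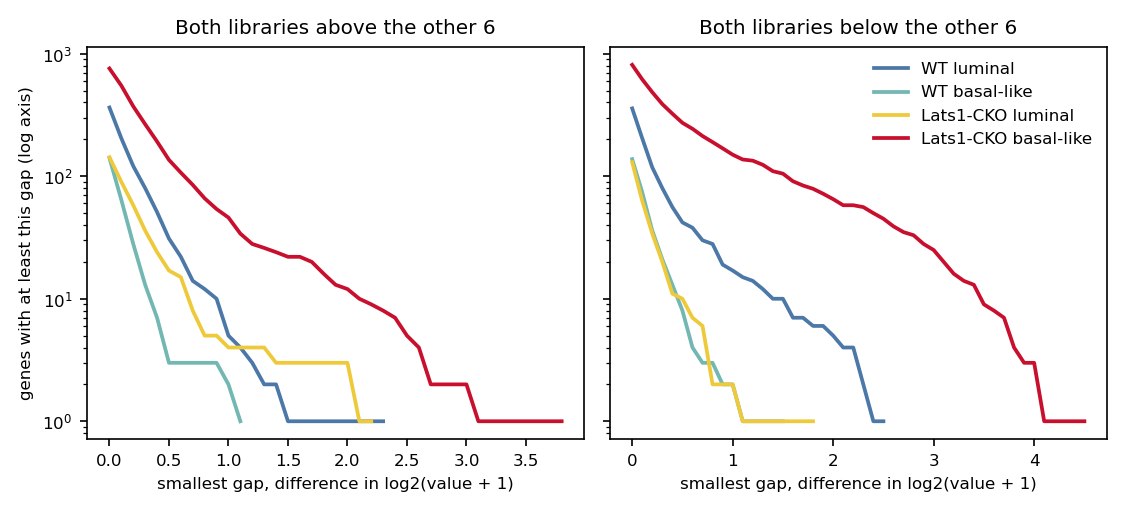
Number of genes (log axis) whose 2 libraries all lie above (left) or below (right) the other 6 by at least the gap on the x axis, a difference in log2(value + 1), for each of the 4 groups; a line ends where no gene is left. The Lats1-CKO basal-like line starts at 758 genes above and 812 below, and at a gap of 1 it holds 46 and 150.

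At the edges of the rule, genes inside and outside hardly differed. Ube2l3 was just above all 6 others, with its lower value and that of Lats1-CKO luminal replicate 2 both at 280, and Pgam1 was just outside, with 38.8 in Lats1-CKO basal-like replicate 1 and 38.9 in WT basal-like replicate 1. On the lower side, Nol8 was just inside, with 13.4 in both Lats1-CKO basal-like replicate 1 and WT luminal replicate 2. Fbxo45 was just outside, with 29.5 against 29.4. A position above or below all 6 thus says little for genes with a small gap. Single genes below are read by their values, by wide gaps and by a test across all genes. Counts of list members below take in gaps of any size.

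That test (limma on log2(value + 1), 2 libraries against 6, two-sided, Benjamini-Hochberg adjusted p under 0.05 over the 9031 genes) called 32 genes higher (0.354%) and 132 lower (1.46%) in Lats1-CKO basal-like cells. All 32 lay above all 6 others and all 132 lay below. Of the 32, 8 had passed the filter on low values only through the libraries in which they were high (among them Col3a1, Col6a3, Fmod and Tgfbi), so that they had to differ, and their p-values are given as a description. The lower calls also include genes that reached 10 only in other cells. Among them were Crb3, Ildr1, Nectin4, Marveld2, Rab25, Tjp3, Prss8, Spint1, Tmprss2, Grhl2, Ovol1, Tfap2c and Esrp1. The p-values of such genes are likewise a description. At an unadjusted p under 0.05 there were 1507 genes in both directions together. Which calls held depended on the alternative. When each library was left out in turn, 38 of the 132 lower calls were made in all 8 fits, and none of the 32 higher calls was. A fit without a Lats1-CKO basal-like library sets 1 library against 6, takes its spread from the others alone and assumes that the lone library varies like them. Leaving out Lats1-CKO basal-like replicate 1 gave 12 genes higher and 72 lower, and leaving out replicate 2 gave 12 and 188, and in both cases 3 of the 12 were among the 32. Leaving out a library of the others gave from 6 higher and 68 lower (WT luminal replicate 1) to 30 and 130 (Lats1-CKO luminal replicate 2), with 11 and 69 for WT luminal replicate 2, 11 and 80 for WT basal-like replicate 1, and 20 and 74 for Lats1-CKO luminal replicate 1. In a model of 4 groups, with a gene called only if it passed against each of the 3 other groups, 33 genes were lower and none was higher (at an unadjusted p under 0.05 in each contrast, 253 and 119). edgeR's quasi-likelihood test on the recovered reads called 32 higher and 54 lower, which held 27 of the 32 higher and 54 of the 132 lower calls, and DESeq2 called 174 and 257.

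The 33 genes that passed against each of the 3 other groups were 0.365% of those tested, and they held 8 of the 23 tested members of the tight and adherens junction list. They included Ap1m2, Atg9b, Camsap3, Cblc, Cdh1, Crb3, Cxadr, Dact2, Dmrta2, Epcam, F2rl1, Grb7, Hook2, Il17re, Ildr1, Kdf1, Krt8, Krt18, Lsr, Marveld2, Nectin4, Pkp3, Prss8, Rab25, Ripk4, Serinc2, Spint1, St14, Tmem102, Tnk1, Urah and Wnt7b. In bulk RNA, fewer cells that express a gene and less of its RNA per cell cannot be told apart, here or in any result that follows.

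Cdh1 encodes E-cadherin, the adhesion molecule of epithelial adherens junctions (chromosome 8, 106603351 to 106670246, plus strand, GRCm38). It read 21.4 and 19.4 in Lats1-CKO basal-like cells and 501, 539, 400, 444, 368 and 398 in the 2 WT luminal, 2 WT basal-like and 2 Lats1-CKO luminal libraries. The 6 others lay close together and the 2 libraries lay well below the lowest of them (a gap of 4.04, or 16.5-fold). The log2 fold change was -4.36 (SE 0.20, limma adjusted p = 2.65e-05), the lowest p of all genes tested, and the adjusted p stayed at or below 0.000702 whichever library was left out.

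Epcam, on whose protein the cells were sorted, read 10.7 and 33.7 against 255 to 708, with WT basal-like replicate 2 the lowest of the others (log2 fold change -4.63, SE 0.45, adjusted p = 0.0016). The WT basal-like libraries, also sorted as EpCAM-low, held 562 and 255. The part of the sort in the low value was not tested. Itga6, the gene for CD49f, read 48.2 and 195 against 81.6 to 338 and overlapped (log2 fold change -0.70, adjusted p = 0.588).

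Among claudins and their partners, Cldn3 read 49.6 and 50.5, against 448 in Lats1-CKO luminal replicate 2 and 955 to 3534 in the rest (log2 fold change -4.98, SE 0.67, adjusted p = 0.00677). Cldn7 read 18.8 and 25.9 against 172 to 1104 (-4.49, SE 0.65, adjusted p = 0.00973). Both calls were lost without Lats1-CKO basal-like replicate 1, at adjusted p of 0.0512 and 0.0634. Cldn4, with 22.8 and 27.2 against 133 to 1368, did not pass (adjusted p = 0.0541). The tricellular junction genes, whose products seal the corners where cells meet, were low too. Lsr read 9.38 and 25.9 against 245 to 704 (-4.97, SE 0.46, adjusted p = 0.00135). Ildr1 had 1 read over both libraries and 390 over the 6 others, a ratio of 86.1 with a 95% exact counting interval of 15.4 to 3408. Marveld2 (tricellulin) read 1.34 and 3.88 against 23.1 to 64.9 (-3.85, SE 0.44, adjusted p = 0.00249).

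The gene lists were chosen with earlier results of these data known, so counts of their members are a description. Of 23 tested tight and adherens junction genes, 18 lay below all 6 others (over all genes, 8.99%). None lay above, and 12 passed the test as lower (over all genes, 1.46%). Of these, Crb3, Ildr1, Nectin4, Marveld2, Rab25 and Tjp3 reached 10 only in other cells. The median log2 fold change was -3.85, against 0.00 over all tested genes. The count was also 18 under TMM, CPM and thinning, and 12 at a gap of 2-fold. Without Lats1-CKO basal-like replicate 1, 7 of the 12 calls were made. The 5 members that overlapped were Nectin1, at 232 and 47.9 against 55.4 to 377, Mpp5, at 13.4 and 14.2 against 7.77 to 26.8, Llgl2, at 21.4 and 184 against 73.2 to 268, Ocln and Patj.

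Of the members of this list that act in polarity and trafficking, Crb3 and Rab25 had wide gaps, while Patj, Mpp5 and Llgl2 overlapped and Pard6b, at 6.7 and 10.4 against 19.2 to 159, did not pass (adjusted p = 0.0952). Crb3, the Crumbs protein of epithelial tight junctions, read 2.68 and 0 against 47.7 to 150 (-5.41, SE 0.56, adjusted p = 0.00176). Rab25, a small GTPase of apical recycling endosomes, read 8.04 and 7.77 against 96.3 to 434 (-4.80, SE 0.50, adjusted p = 0.00173). Both calls held whichever library was left out.

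Keratins 8 and 18, of simple epithelium, fell. Krt8 read 20.1 and 36.2 against 1991, 2694, 1811, 529, 1801 and 792 in the 2 WT luminal, 2 WT basal-like and 2 Lats1-CKO luminal libraries. Krt18, its partner, read 54.9 and 104 against 3387, 3746, 2450, 1386, 1477 and 652. WT basal-like cells, sorted as EpCAM-low, thus lay below both WT luminal libraries for these keratins. Their levels overlapped those of the Lats1-CKO luminal cells. Krt8 had a log2 fold change of -5.64 (SE 0.58, adjusted p = 0.00173) and Krt18 of -4.61 (SE 0.61, adjusted p = 0.00625), with the Krt18 call lost without Lats1-CKO basal-like replicate 1 (adjusted p = 0.0541). Krt7 read 97.8 and 93.2 against 544 to 5739 and passed narrowly (adjusted p = 0.0493), and the call was lost in 6 of the 8 fits that left out a library, with an adjusted p of up to 0.133 without Lats1-CKO basal-like replicate 1. Of 12 tested luminal markers, 5 lay below all 6 others (over all genes, 8.99%), 3 passed as lower (Krt8, Krt18, Krt7) and none lay above. Krt19, another keratin of simple epithelium, overlapped at 0 and 2.59 against 0.96 to 181 (adjusted p = 0.334). Gata3, the luminal transcription factor, read 410 and 236 against 249 to 470 (log2 fold change -0.04, adjusted p = 0.968).

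Desmosome genes were below in 7 of 9 tested members (over all genes, 8.99%), and Pkp1, Pkp3 and Evpl passed as lower (over all genes, 1.46%). Pkp3 (plakophilin 3) read 13.4 and 16.8 against 158 to 441 (-4.23, SE 0.36, adjusted p = 0.000977), also when each library was left out. Pkp1 and Evpl (envoplakin) passed at adjusted p of 0.0474 and 0.0313, and reached 0.153 and 0.133 without Lats1-CKO basal-like replicate 1. Gaps were narrow for Pkp2, Ppl and Perp. Pkp2 read 17.4 and 24.6 against 28.3 to 81.6, and Ppl 32.1 and 36.2 against 40.6 to 80.4. Perp read 694 and 448 against 711 to 2239.

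All 6 tested membrane serine proteases and inhibitors lay below all 6 others (over all genes, 8.99%), and 5 passed as lower (over all genes, 1.46%). Of these, Prss8, Spint1 and Tmprss2 reached 10 only in other cells. St14 (matriptase) read 9.38 and 18.1 against 181 to 476, and Prss8 (prostasin), which acts with it, read 1.34 and 3.88 against 57.5 to 172. Their inhibitor Spint1 read 2.68 and 3.88 against 43.8 to 192. The adjusted p was 0.000977 for St14, 0.00105 for Prss8 and 0.00223 for Spint1, and all held whichever library was left out. Spint2 read 13.4 and 62.1 against 193 to 461 (adjusted p = 0.0142; 0.0512 without Lats1-CKO basal-like replicate 1). Tmprss2 had 0 reads in both libraries and read 5.44 to 44.7 in the others. Its call (adjusted p = 0.0497) was lost whichever library was left out. Prss22 did not pass (adjusted p = 0.17).

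Of 13 tested epithelial transcription and splicing factors, 9 lay below all 6 others (over all genes, 8.99%) and none lay above. Grhl2, Ovol1, Tfap2c and Esrp1 passed as lower (over all genes, 1.46%). All of these reached 10 only in other cells, so their p-values are a description. Esrp1, a splicing regulator that maintains epithelial isoforms, read 1.34 and 6.47 against 43.8 to 176 (-4.30, SE 0.55, adjusted p = 0.00541, and at most 0.0417 when a library was left out). Grhl2, an activator of Cdh1 and claudin genes, read 4.02 and 5.18 against 20.7 to 69.5 (-3.08, SE 0.42, adjusted p = 0.00758; 0.0541 without Lats1-CKO basal-like replicate 1). Ovol1, a repressor of ZEB genes, had 0 reads in both libraries and 3.98 to 17.1 in the others (adjusted p = 0.0259, up to 0.0736 without WT basal-like replicate 1). Tfap2c read 4.02 and 6.47 against 22.5 to 109 (adjusted p = 0.0263, up to 0.102 without Lats1-CKO basal-like replicate 1). Klf5 lay below without passing, at 167 and 88 against 196 to 344 (adjusted p = 0.101), and Tfap2a overlapped at 60.3 and 58.2 against 55.2 to 110.

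The single widest gap on the lower side was that of Serinc2, a membrane protein of the serine incorporator family (chromosome 4, 130253495 to 130279205, minus strand). It read 12.1 and 6.47 against 676, 448, 451, 430, 350 and 309, a gap of 23.7-fold (log2 fold change -5.45, SE 0.32, adjusted p = 0.000103). The signalling genes Grb7, Ripk4 and Cblc followed the same pattern at lower counts. Grb7, an adaptor of receptor tyrosine kinases, had 2 reads over both libraries and 454 over the 6 others, a ratio of 50.1 (95% exact counting interval 13.8 to 415). Ripk4, a kinase of epidermal differentiation, had 1 read against 404 (ratio 89.2, interval 15.9 to 3530), and Cblc, an epithelial ubiquitin ligase, 1 against 538 (ratio 119, interval 21.2 to 4698). Nectin4 and Usp43 had no read at all in Lats1-CKO basal-like cells. Against a floor of 3 reads over both libraries, Nectin4 was at least 27.4-fold and Usp43 at least 8.68-fold lower. In all, 27 genes below had 0 reads in both libraries and 104 had at most 3, so that for these the depth bounds the fold.

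**Figure D2:**
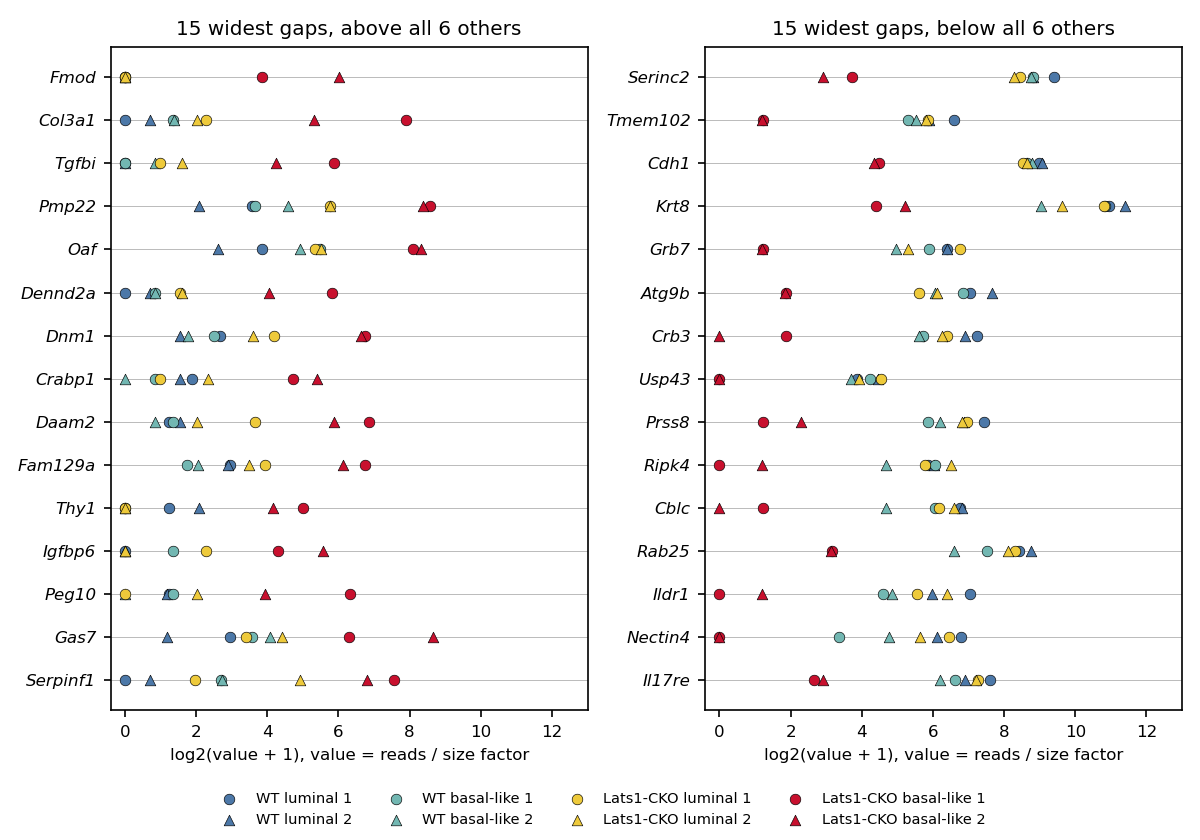
The 15 genes with the widest gap above (left) and below (right) all 6 others; each point is 1 library, with log2(value + 1) on the x axis, color for the group and shape for the replicate. Both red Lats1-CKO basal-like points stand apart from the 6 others in every row, and on the left the Lats1-CKO luminal points are often the nearest.

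Several of these genes are neighbours. Cldn3 and Cldn4 lie beside each other on chromosome 5 in a run of 5 tested genes below all 6 others (with Wbscr25, Abhd11 and Abhd11os, whose reads may be shared between strands), from 134945119 to 135013253. Krt8 and Krt18 are adjacent on chromosome 15, and Tmprss2 and Ripk4 on chromosome 16. Nectin4 heads a run of 5 on chromosome 1 with Usf1, F11r, Alyref2 and Vangl2. Chromosome 13 as a whole held 43 genes below and 6 above of 288 tested (14.9% and 2.08%, against 8.99% and 8.39% over all genes), and its median log2 fold change was -0.32. It was not alone: chromosome 7 held 96 below and 43 above of 682 (14.1% and 6.3%). Chromosome 15 leaned the other way, with 24 below and 58 above of 388 (6.19% and 14.9%). Chromosome 4 differed between the replicates, with a median of -0.61 in replicate 1 and 0.26 in replicate 2 relative to the mean of the others. Whether copy number contributed was not tested.

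Promoters of the epithelial genes were read for an E-box, the letters CAGGTG on either strand (read as CACCTG on the opposite one), which ZEB and SNAIL factors bind. RefSeq windows on GRCm38.p6, from 250 bases before to 50 bases after the start of transcription, matched 7282 of the 9031 tested genes. The letters stood in 17.8% of 9363 windows of tested genes and in 20.2% of all 32851 windows of the table. They stood in 26.9% of the 817 windows of genes below all 6 others, in 45.3% of the 137 windows of genes below by at least 2-fold, and in 44.2% of the 113 windows of genes called lower. Among genes above all 6 others the share was 16.7% of 790 windows, and 6.82% (3 of 44) at 2-fold. Median GC content was 61.3% to 62% in the 3 groups of windows on the lower side and 61.7% in windows of all tested genes. A gene may have several windows that overlap, and a match of letters is a description, not a bound site.

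The windows below belong to the 6 genes with the widest gaps among the members of the gene lists that lay below all 6 others and held the letters. They are shown because their genes carry the low junction, polarity and keratin transcripts described above. Each runs 5′ to 3′ along the strand of its gene, and capitals mark CAGGTG or CACCTG. Krt8 lies at chr15:102004293-102004592 (minus strand), Crb3 at chr17:57061951-57062250 (plus), Rab25 at chr3:88548230-88548529 (minus), Ildr1 at chr16:36693728-36694027 (plus), Lsr at chr7:30973420-30973719 (minus) and Cldn3 at chr5:134985964-134986263 (plus).
Krt8: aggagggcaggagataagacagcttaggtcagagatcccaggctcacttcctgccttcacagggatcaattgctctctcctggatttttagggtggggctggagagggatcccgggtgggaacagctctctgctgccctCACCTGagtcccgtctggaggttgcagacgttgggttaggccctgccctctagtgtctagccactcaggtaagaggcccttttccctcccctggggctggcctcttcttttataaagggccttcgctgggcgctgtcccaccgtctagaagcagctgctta
Crb3: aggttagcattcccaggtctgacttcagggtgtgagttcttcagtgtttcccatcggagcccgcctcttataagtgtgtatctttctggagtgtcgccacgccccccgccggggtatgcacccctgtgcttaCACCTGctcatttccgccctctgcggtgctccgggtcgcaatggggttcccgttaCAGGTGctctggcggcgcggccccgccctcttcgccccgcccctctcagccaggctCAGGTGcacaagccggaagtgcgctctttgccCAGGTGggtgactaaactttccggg
Rab25: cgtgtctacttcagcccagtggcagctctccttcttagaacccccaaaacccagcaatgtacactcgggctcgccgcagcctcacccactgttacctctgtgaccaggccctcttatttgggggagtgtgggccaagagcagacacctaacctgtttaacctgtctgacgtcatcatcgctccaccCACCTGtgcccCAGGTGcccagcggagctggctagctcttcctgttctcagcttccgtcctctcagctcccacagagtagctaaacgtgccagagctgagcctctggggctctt
Ildr1: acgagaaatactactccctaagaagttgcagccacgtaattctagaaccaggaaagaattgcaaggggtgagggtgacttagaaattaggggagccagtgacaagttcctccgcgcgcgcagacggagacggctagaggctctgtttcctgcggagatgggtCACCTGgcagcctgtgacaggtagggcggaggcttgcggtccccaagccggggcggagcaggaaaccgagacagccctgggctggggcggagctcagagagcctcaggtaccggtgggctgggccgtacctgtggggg
Lsr: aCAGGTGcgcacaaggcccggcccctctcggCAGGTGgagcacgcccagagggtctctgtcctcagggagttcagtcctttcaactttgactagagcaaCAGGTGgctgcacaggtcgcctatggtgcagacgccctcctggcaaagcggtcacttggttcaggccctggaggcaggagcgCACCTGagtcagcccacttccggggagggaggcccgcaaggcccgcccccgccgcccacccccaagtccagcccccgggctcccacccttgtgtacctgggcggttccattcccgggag
Cldn3: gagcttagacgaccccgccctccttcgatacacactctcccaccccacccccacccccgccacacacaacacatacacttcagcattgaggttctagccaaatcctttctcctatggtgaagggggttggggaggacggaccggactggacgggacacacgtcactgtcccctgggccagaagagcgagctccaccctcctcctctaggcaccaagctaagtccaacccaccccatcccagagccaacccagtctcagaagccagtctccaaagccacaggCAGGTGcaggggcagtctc

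The number of copies differed. Crb3 and Lsr held 4 each, Rab25 held 2, and Krt8, Ildr1 and Cldn3 held 1. In Crb3 they began 118, 63 and 7 bases before the annotated start and 25 after it, and in Rab25 the 2 copies began 64 and 53 bases before the start, on opposite strands. Of 63 genes below all 6 that were either among the 15 widest or in a list, 38 had a window, and 23 of these held the letters. The letters of 3 other motifs were counted in the same windows. GGAATG (TEAD; CATTCC on the other strand) stood in 16.8% of windows of genes below by at least 2-fold against 12.1% of windows of all tested genes. AACCNGTT (GRHL) stood in 3.65% against 1.7%, and TGANTCA (AP-1) in 11.7% against 5.05%. In windows of genes called lower the shares were 15.9%, 1.77% and 7.08%, and in windows of genes called higher, of which there were 32, they were 12.5%, 9.38% and 0%.

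The mesenchymal side was less firm in the test. Vim (vimentin), the intermediate filament of mesenchymal cells, read 10596 and 15998 against 861, 1455, 2578, 5225, 2296 and 4768. It lay above all 6 others by 2.03-fold, with WT basal-like replicate 2 the nearest, but it did not pass (log2 fold change 2.45, SE 0.62, adjusted p = 0.0951). Of 12 tested mesenchymal cytoskeleton and adhesion genes, 7 lay above all 6 others (over all genes, 8.39%) and none lay below. The gaps of the 7 ran from 0.04 (Ncam1) and 0.31 (S100a4) to 2.66 (Tgfbi). Pmp22 and Tgfbi passed as higher (over all genes, 0.354%), Tgfbi as 1 of the genes that the filter kept only through the high libraries. Pmp22, a membrane protein of myelin and mesenchyme, read 383 and 331 against 3.19 to 53.7, the 2 Lats1-CKO luminal libraries being the nearest (4.24, SE 0.88, adjusted p = 0.0493). Tgfbi, a matrix protein induced by TGF-β, read 57.6 and 18.1 against 0 to 2.02 (4.50, SE 0.90, adjusted p = 0.0458). Without Lats1-CKO basal-like replicate 1 the adjusted p was 0.146 and 0.225, and the calls were lost in 5 and 7 of the 8 fits that left out a library. Cdh2 (N-cadherin) did not move with them: it read 32.1 and 259 against 127 to 326.

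The widest gaps upward were those of Fmod and Col3a1. Fmod (fibromodulin), a proteoglycan that binds collagen (chromosome 1, 134037254 to 134048277, plus strand), read 13.4 and 63.4 and had 0 reads in all 6 others. Against a floor of 3 reads over the 6 it was at least 89.1-fold higher. Col3a1 (collagen III) read 238 and 38.8 against 0, 0.638, 1.55, 1.59, 3.84 and 3.03, or 208 reads against 12 (ratio 78.5, 95% exact counting interval 44.0 to 155). Its adjusted p was 0.0176 (log2 fold change 5.32, SE 0.85), and like Fmod and Col6a3 it had entered the test only through the high libraries. The replicates were far apart, and without replicate 1 the adjusted p was 0.126. The Fmod call (adjusted p = 0.0493) was lost in 7 of the 8 fits that left out a library, with an adjusted p of up to 0.28 without Lats1-CKO basal-like replicate 2. Col6a3 read 42.9 and 466 against 1.28 to 13.1 (5.06, SE 0.98, adjusted p = 0.0401; 0.163 without Lats1-CKO basal-like replicate 2, and lost in 6 of the 8 fits).

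Of 14 tested stromal collagens and matrix glycoproteins, 7 lay above all 6 others (over all genes, 8.39%) and 1 lay below (Tnc). The gaps of the 7 ran from 0.40 (Sparc) and 0.58 (Col6a1) to 3.04 (Col3a1). Col3a1 and Col6a3 passed as higher (over all genes, 0.354%), both kept by the filter only through the high libraries. The median log2 fold change was 2.93. Col5a1 read 229 and 243 against 5.41 to 81.9, Fbn1 (fibrillin) 67 and 66 against 1.91 to 41.3, and Sparc 1626 and 1442 against 295 to 1090. None of these 3 passed (adjusted p of 0.16, 0.179 and 0.165). Col1a1, the main collagen of fibroblasts, was too low to be tested, at 5.36 and 10.4 against 0 to 8.07. Col1a2, of the same list, was tested and overlapped, at 14.7 and 220 against 0 to 35.3 (3.62, adjusted p = 0.232). Of 12 tested basement membrane genes, 3 lay below all 6 others (over all genes, 8.99%), none lay above and 1 passed. The median log2 fold change was 0.37, with 7 positive values. Lama5, a laminin chain, read 87.1 and 107 against 202 to 619 and passed as lower (adjusted p = 0.0415, up to 0.133 without Lats1-CKO basal-like replicate 1), and Lama3 and Lamb3 lay below all 6 others without passing (0.126 and 0.0918).

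Enzymes that process matrix were above all 6 others in 3 of 14 tested members (over all genes, 8.39%), P4ha3, Serpinh1 and Timp1, and none passed. Serpinh1, the collagen chaperone HSP47, read 1499 and 2923 against 354 to 1335. Timp1, a metalloprotease inhibitor, read 1223 and 870 against 126 to 497. The metalloproteases themselves did not separate: Mmp2 read 442 and 42.7 against 2.55 to 137, and Mmp14 896 and 53.1 against 137 to 215.

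Among further genes called higher, the replicates were close together for Dnm1 (dynamin 1), at 107 and 98.4 against 1.91 to 17.3, Oaf, at 272 and 321 against 5.1 to 44.4, and Fam129a, at 106 and 68.6 against 2.33 to 14.4. Their adjusted p were 0.0259, 0.0458 and 0.0207, and reached 0.099 (Dnm1) and 0.102 (Fam129a) without Lats1-CKO basal-like replicate 1 and 0.124 (Oaf) without replicate 2. Reads of Dnm1 may be shared with Ciz1 on the other strand. Fth1, the ferritin heavy chain, was the most abundant gene called higher, at 19011 and 15881 against 3116 to 8609, and as a gene with processed pseudogenes it could share reads with them (adjusted p = 0.0493, up to 0.153 without Lats1-CKO basal-like replicate 1).

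Of the EMT transcription factors, 5 were tested and only Twist1 separated and passed (over all genes, 8.39% lay above and 0.354% passed as higher). It read 249 and 199 against 115, 99.5, 120, 115, 115 and 81.8, a level that varied little among the 6 (1.06, SE 0.22, adjusted p = 0.0478). The call was lost whichever library was left out, with adjusted p from 0.0539 to 0.163. Snai1 read 413 and 123 against 40.4 to 202, Twist2 241 and 54.4 against 6.38 to 66, and Snai2 16.1 and 38.8 against 2.7 to 54.5. Zeb1, under the filter, read 14.7 and 9.06 against 0 to 9.6, and Zeb2 was not analysed here.

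Of 14 tested Hippo core genes, 1 lay above all 6 others and 1 below (over all genes, 8.39% and 8.99%). Tead2, a DNA-binding partner of YAP and TAZ, passed as lower, at 44.2 and 19.4 against 71.7 to 406 (-2.98, SE 0.60, adjusted p = 0.0464, up to 0.157 without Lats1-CKO basal-like replicate 2). Sav1 lay just above the others. Of 21 tested YAP and TAZ targets, 4 lay above all 6 others (Ccn1, Amotl2, Lats2, F3), 2 lay below (Ajuba, Nt5e) and none passed, with a median log2 fold change of -0.01. These counts were read against the same shares of all genes, and nothing is drawn from them about the pathway. Ccn1 read 1392 and 2484 against 456 to 1111 and Ccn2 53.6 and 674 against 177 to 928. Lats2, the paralog of Lats1, read 87.1 and 80.2 against 44.6 to 72.1 (adjusted p = 0.262). Ncor1, the corepressor named with LATS1 in the study's title, read 79 and 69.9 against 67.6 to 81.9, and Hdac1 42.9 and 69.9 against 51.8 to 87. Among the genes that the study picked as NCOR1-repressed, a choice that is not independent of this tumor model, 6 were tested, only Col5a1 separated and none passed, with 6 positive log2 fold changes and a median of 1.69.

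In 4 further lists of general state no member passed the test. None of 9 G2/M genes, 10 interferon-stimulated genes and 9 p53 targets lay outside the others. Of 7 ERBB receptors and ligands, Erbb2 lay below (over all genes, 8.99% did), at 60.3 and 51.8 against 69.2 to 102 (adjusted p = 0.225).

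Among imprinted genes, Peg10 and its neighbour Sgce, which are transcribed away from each other on chromosome 6 from the paternal copy, both lay above all 6 others. Peg10 read 79 and 14.2 against 0 to 3.03, and Sgce 80.4 and 58.2 against 1.59 to 18.2. Neither passed (adjusted p = 0.0599 and 0.0625), and reads near their shared start could be assigned to either. No other of the 7 tested imprinted genes separated (over all genes, 8.39% lay above and 8.99% below).

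The 2 Lats1-CKO basal-like libraries were not alike at many genes, among them some described above, such as Col3a1, Col6a3 and Mmp14. Across genes, which are not independent replicates, they correlated at r = 0.792. Replicate 1 correlated more with Lats1-CKO luminal replicate 1 (0.852), and replicate 2 more with Lats1-CKO luminal replicate 2 (0.868), although the labels give no pairing. Both also correlated more with WT basal-like replicate 2 (0.812 and 0.8455). Replicate 2 did so with Lats1-CKO luminal replicate 1 (0.808) and WT basal-like replicate 1 (0.800) too. They differed by at least 2-fold at 2780 genes and by at least 8-fold at 470. They held opposite ends of the 8 libraries at many genes, with replicate 1 highest and replicate 2 lowest at 254, and the reverse at 393.

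The 5 genes with the largest difference toward replicate 1 were Cxcl12, Psmb8, Msx1, Igfbp4 and Prrx2, and toward replicate 2 Mir692-1, Ucma, Gjc3, Col11a1 and Col2a1. Cxcl12, a stromal chemokine, read 2881 in replicate 1 and 12.9 in replicate 2, and Igfbp4, which binds insulin-like growth factors, 7021 and 38.8. In the 6 others both were highest in Lats1-CKO luminal replicate 1, at 248 and 3065. The homeobox genes Msx1 and Prrx2 read 186 and 587 in replicate 1 and 0 and 2.59 in replicate 2. Psmb8, an immunoproteasome subunit, read 683 and 2.59, and its reads may be shared with Tap1.

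Col2a1 (collagen II), the main collagen of cartilage, read 95.1 in replicate 1 and 22433 in replicate 2, and Ucma, a secreted protein of cartilage, 2.68 and 2391. In the 6 others, Lats1-CKO luminal replicate 2 was the highest for both, at 3099 and 237. Col11a1 and the connexin gene Gjc3 went with them. Mir692-1 also differed, at 6.7 and 5151, but 3′ tags that fall in the window of a microRNA gene cannot be assigned to the microRNA. The summed level of 13 cartilage markers was 304 in replicate 1, 34600 in replicate 2, 5468 in Lats1-CKO luminal replicate 2 and 454 to 716 in the rest. None of the 11 tested members lay above or below all 6 others.

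**Figure D3:**
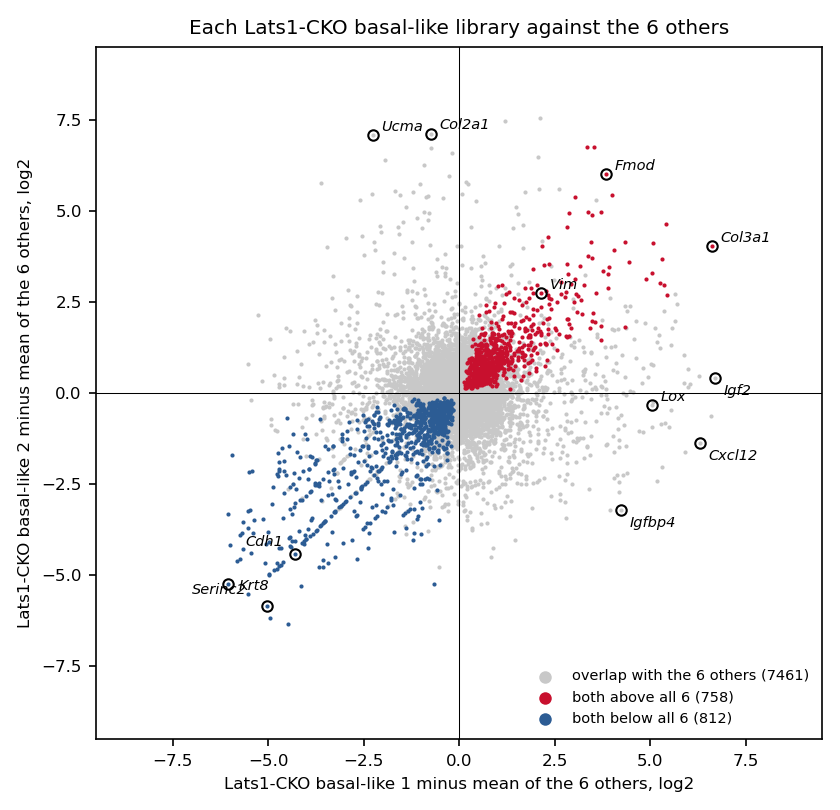
Each point is 1 of 9031 genes, with its log2(value + 1) in Lats1-CKO basal-like replicate 1 (x axis) and replicate 2 (y axis), both minus the mean of the 6 others; red genes are above all 6, blue genes below, gray genes overlap. Cdh1, Krt8 and Serinc2 are low in both libraries, while Cxcl12, Igf2 and Lox are high along the x axis only and Col2a1 and Ucma along the y axis only.

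Markers of other cell types were read beside the mesenchymal genes. The summed level of 6 fibroblast markers was 967 and 261 in Lats1-CKO basal-like cells and 15.9 to 422 in the others, so the sums overlapped, with Pdgfrb at 352 in WT basal-like replicate 2. All 5 tested had a positive log2 fold change, with a median of 2.54. Of these, Thy1 lay above all 6 others, at 30.8 and 16.8 against 0 to 3.19 (adjusted p = 0.0823), and none passed. Pdgfra read 76.3 and 2.59 and Pdgfrb 666 and 198, against 0.638 to 14.4 and 5.41 to 352. Dcn (decorin), a defining fibroblast gene, had 0 reads in replicate 1, read 12.9 in replicate 2 and had 0 reads in all 6 others. The part that fibroblasts in the cultures took in the collagen and mesenchymal results was not tested. Endothelial, immune, adipocyte, muscle and glial lists had at most 2 tested members each, none of them called, and their summed levels were at most 89.7 in both libraries (at most 43.2 in the others) except for the glial list in replicate 2 (800), where S100b, which cartilage also expresses, gave 699 (the glial list held 139 in Lats1-CKO luminal replicate 2). Ptprc, Pecam1 and Adipoq were not analysed here.

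The other cells did not stand at equal distance. For genes above all 6 others, the nearest library was Lats1-CKO luminal at 363 of 758 genes (47.9%), WT basal-like at 271 and WT luminal at 124. For genes below, it was WT basal-like at 353 of 812 (43.5%), Lats1-CKO luminal at 310 and WT luminal at 149. A single library, WT basal-like replicate 2, was nearest at 196 genes above and 226 below, more than any other. This is the library in which Epcam (255), Krt8 (529) and Vim (5225) were closest to the Lats1-CKO basal-like values. These counts are a description, with no test.

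The split between directions depended on scaling. With reads scaled to the library total (CPM) in place of the size factors, 518 genes lay above and 1041 below, and the median of all tested genes moved by -0.10 on the log2 scale. With TMM scaling the counts were 698 and 866. Of the 758 and 812 genes, 516 and 811 kept their position under CPM. After each library was thinned to 1070358 reads, 485 lay above and 903 below. Counts of genes with a small gap thus moved with scaling and depth.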

How the data were processed

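Bulk MARS-seq libraries (3′ tags) of sorted cells from PyMT mammary tumor lines were analysed, 2 for each genotype (WT, Lats1-CKO) and sorted population (luminal, basal-like). Groups were taken from the labels, and replicate numbers only follow sample order. Per the methods of the study, reads went through cutadapt and STAR (mm10), were counted over extended Gencode genes by htseq-count, and genes under a low read minimum were dropped. Strand setting, Gencode version and use of molecular identifiers are not given in the sources used here. The deposited signal is a normalized count: reads over a DESeq2 size factor, set by the authors over the 8 libraries. Dividing by what 1 read is worth in a library gave whole reads (tolerance 1e-06) for 100% of genes. The table also holds 24 columns of the authors' pairwise fold changes, p-values and the like, which were not used.

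Genes that reached 10 in 2 or more libraries (9031 of 10924) were fitted with limma 3.58.1 (R 4.3.3), intensity trend, on log2(value + 1), 2 libraries against 6, 6 residual degrees of freedom. The fold change on this scale understates that of low genes. edgeR 4.0.16 and DESeq2 1.42.0 on recovered reads, a 4-group model, other pseudocounts, filters and scalings, thinning and leaving out each library were alternatives. The script was tested on simulated data. Counting intervals (95%, exact) and floors of 3 reads over a side cover counting error only. Genes named were the 15 with the widest gap on each side, list members, genes at the edge of the rule, the 5 with the largest replicate difference in each direction, a fixed set of markers (Cdh1, Vim, Epcam, Itga6, Hdac1, Ncor1, both Lats genes and keratins 5, 8, 14 and 18) and, chosen after their values were seen, genes called in the test. Some genes are not reported here. The 26 gene lists and the genes singled out were chosen with earlier results of these data known. Coordinates are from GENCODE M21 (GRCm38; 10759 symbols found) and promoter sequences from RefSeq.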

Additional observations from a re-analysis of the deposited data

Results flagged for a closer look

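The values of the 6 other libraries were checked, as 1 group on the log2(value + 1) scale, for a library that stood far from the rest (a gap to its neighbour that takes most of the whole range, above Dixon's critical value at 95%, which chance gives in about 1 in 20 groups). Of 113 genes checked, 9 had such a library. These 6 come from 3 groups, so a library that stands apart may also be one whose group differs. WT basal-like replicate 2 was the lowest of the 6 for Epcam (255, the next library 511), Marveld2 (23.1, next 46.6) and Cblc (24.7, next 65.3). For these 3 genes it was the other library nearest to the Lats1-CKO basal-like values. Lats1-CKO luminal replicate 2 was the highest for the basal genes Krt5 (4881, next 31.9) and Itgb4 (3956, next 1462), for the cartilage genes Col2a1 (3099, next 106) and Ucma (237, next 14.3), and for Gjc3 (51.5, next 2.55), a connexin gene of glia. Lats1-CKO luminal replicate 1 was the highest for Cxcl12 (248, next 42.7).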

How the results depend on the processing

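The main test called 32 genes higher and 132 lower. A filter of at least 10 in 4 libraries left 21 higher, calling against each of the 3 other groups 0 and 33, edgeR 54 lower, DESeq2 174 and 257, and DESeq2 with the settings of the study 180 and 262. Leaving out 1 library gave 6 to 30 higher and 68 to 188 lower. The 4-group model shared 12 of the 32 higher and 86 of the 132 lower calls, and edgeR 27 and 54. Of the genes above and below all 6 others (758 and 812), a gap of 2-fold left 46 and 150, and thinning 485 above. Leaving out 1 library gave 805 to 2162 above and 875 to 2220 below, which can only add genes, and the largest counts are those in which a Lats1-CKO basal-like library was left out. Of 1836 values for 103 named genes, 1530 kept direction and side of the threshold, 211 lost and 93 gained the call, and 2 changed sign, both without Lats1-CKO basal-like replicate 1: Itga6 (0.2972; -1.70 without replicate 2) and Ncor1 (-0.0594; 0.1154 without replicate 2), log2 fold changes that were not called. Of 460 counts of list members, 342 stayed within 1.5 times. No paired analysis was made, because the labels give no replicate numbers and do not state which libraries belong together. With 0 to 3 reads on a side, depth bounds the fold.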
